A study of Caenorhabditis elegans with 2 samples.

Results

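ChIP-seq of NHR-25, a nuclear hormone receptor, was examined at the genes of the splicing machinery in whole third-stage (L3) larvae of Caenorhabditis elegans. The genes were chosen by name alone, as the protein-coding genes of the Ensembl annotation called snr-, lsm-, prp-, rsp-, uaf-, sftb- or rnp- with a number, which gave 49 of 19973 nuclear protein-coding genes. The worms were of strain OP33, genotype unc-119(ed3) III; wgIs33, with males and females pooled. The strain stably carries NHR-25 fused at its C-terminal end to GFP and FLAG. The labels do not say in which cells the fusion is made, or whether untagged NHR-25 is present beside it. Both samples were labelled as biological replicates of this single condition, numbered 1 and 2, so the data hold no second condition to compare. Peak height in whole animals cannot tell apart few cells with strong binding and many cells with weak binding.

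Splicing removes introns through small nuclear ribonucleoprotein particles (snRNPs), each an RNA bound by a ring of Sm proteins or, for U6, of LSm proteins. Further factors recognise the splice sites and the branch point, join the particles into the spliceosome and rearrange them, and SR proteins help to choose which exons are kept. In C. elegans many transcripts also receive a spliced leader by trans-splicing, and many genes lie close together on the same strand in operons transcribed from the promoter of the first gene. NHR-25 is the worm's receptor of the SF-1/FTZ-F1 type, which acts in the epidermis and in molting. The splicing genes are used in most cells.

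NHR-25 peaks of the authors' reproducible list lay in front of 26 of the 49 splicing genes (53.1%), against 18.4% of all nuclear protein-coding genes (3673 of 19973). A gene was counted when a summit, the position of greatest height within a peak, lay between 2000 bp upstream and 200 bp downstream of its annotated 5′ end. The peaks are the 5017 that the authors kept by the irreproducible discovery rate (IDR), a rule on how well ranks match between replicates. All 8 SR protein genes had such a summit, as did 5 of 7 Sm genes, 4 of 7 LSm genes, 4 of 13 prp genes, 4 of 9 rnp genes, 1 of 3 SF3B genes and 0 of the 2 U2AF genes. Taken alone, the 5017 highest-signal regions of replicate 1 marked 28 splicing genes (57.1%, against 18.0% of all genes). Those of replicate 2 marked 27 (55.1%, against 17.8% of all genes), a mean of 56.1% ± 1.4 (SD, n = 2). No enrichment test was made on these counts, since genes that share a summit are not independent.

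The count depends on how a summit is given to a gene. It was 22 with a window of 1000 bp upstream (44.9%, against 14.0% of all genes) and 19 with one of 500 bp (38.8%, against 11.2%). When each summit was given only to the gene with the nearest 5′ end, 11 of the 49 kept one (22.4%, against 12.5% of all genes). The 26 genes had 26 distinct summits between them, because rsp-7 and snr-4 had 2 each while rsp-1 with rsp-2, and snr-3 with rsp-5, shared 1. For 25 of the 26 genes (96.2%) the strongest summit also lay in the window of another gene, against 57.5% of all genes with a promoter summit. For 11 of the 26 (42.3%) that summit was nearest to their own 5′ end, against 65.5% of all genes with a promoter summit.

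The sequences under 5 of these summits are printed because they are the 3 tallest at Sm and prp genes and the 2 that lie between paired splicing genes. Each runs 5′ to 3′ over 201 bases centred on the summit, with 21 bases around it in capitals. The bases are those of RefSeq's WBcel235 assembly, the same build as ce11. The stretches are chrV:11979960-11980160 on the minus strand for snr-4, and on the plus strand chrIII:8163965-8164165 for prp-8, chrIII:9521801-9522001 for prp-40, chrII:11453116-11453316 for rsp-2 with rsp-1, and chrII:6489894-6490094 for snr-3 with rsp-5.
snr-4: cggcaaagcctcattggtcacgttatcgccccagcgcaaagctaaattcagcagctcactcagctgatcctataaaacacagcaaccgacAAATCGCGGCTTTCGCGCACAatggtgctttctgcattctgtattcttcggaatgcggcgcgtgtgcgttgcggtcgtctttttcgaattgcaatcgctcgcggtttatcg
prp-8: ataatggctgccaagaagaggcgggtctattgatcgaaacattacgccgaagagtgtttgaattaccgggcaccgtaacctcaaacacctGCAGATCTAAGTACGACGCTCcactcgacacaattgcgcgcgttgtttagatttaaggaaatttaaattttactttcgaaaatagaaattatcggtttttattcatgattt
prp-40: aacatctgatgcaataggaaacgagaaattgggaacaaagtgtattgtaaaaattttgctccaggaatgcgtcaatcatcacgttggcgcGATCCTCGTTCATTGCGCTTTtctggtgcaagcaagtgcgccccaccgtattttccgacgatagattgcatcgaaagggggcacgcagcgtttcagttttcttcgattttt
rsp-2 and rsp-1: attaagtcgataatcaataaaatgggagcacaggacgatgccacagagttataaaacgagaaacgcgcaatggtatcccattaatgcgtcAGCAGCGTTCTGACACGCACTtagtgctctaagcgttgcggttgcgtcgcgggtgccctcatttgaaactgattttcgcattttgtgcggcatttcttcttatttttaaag
snr-3 and rsp-5: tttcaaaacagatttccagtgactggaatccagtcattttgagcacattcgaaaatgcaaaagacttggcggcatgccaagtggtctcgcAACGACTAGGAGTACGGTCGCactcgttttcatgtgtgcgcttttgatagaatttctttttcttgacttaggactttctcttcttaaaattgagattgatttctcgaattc

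None of these 5 stretches, and none of the 26 distinct summits near splicing genes, held the receptor family's half-site core within 100 bp. The core was searched on both strands as CAAGGTC or CAAGGCC, and 6.10% of all 2870 IDR summits in promoter windows held it. The longer form, with C or T before the core and A or G after it, contains the core and so was also at 0 of 26, against 2.86% of all promoter summits. Short letter strings were searched in the same stretches. The CCAAT box, CCAAT, was present at 9 of 26 summits (34.6%, against 31.4% of all promoter summits), among them those of snr-4 and prp-40 printed above. The string GAGAGA was present at 3 of 26 (11.5%, against 36.4%), in front of lsm-1, rnp-7 and rsp-8. The E-box CACGTG was at 0 of 26 (against 6.62%), the GC box CCGCCC at 2 of 26 (7.69%, against 9.44%), and TGACGT at 1 of 26 (3.85%, against 9.62%). Median GC content was 41.5% over the 26 stretches, with a range of 28.9% to 51.7%, against a median of 41.8% for all promoter summits. A string of letters is a description of the sequence and does not show which protein binds there.

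Signal is the authors' own height per peak, on a scale that the sources used here do not give. Among the 26 genes the strongest promoter summit had a median pooled signal of 114.4, with quartiles of 89.72 and 153.5. Over all genes with a promoter summit the median was 83.94 and the quartiles 58.64 and 128.7. The range for splicing genes was 46.33 to 225.7, while the tallest peak in front of any gene reached 919.6. The tallest splicing summit, that of snr-4, ranked 271 by height among the 5017 IDR peaks. For 10 of the 26 genes the summit ranked among the 1000 tallest in the list, against 933 of all 3673 genes with a promoter summit. The 10 include rsp-1 with rsp-2 and rsp-5 with snr-3, so each of these shared summits counts for both of its genes. In replicate 1 the median at splicing genes was 57.92, against 40.01 over all genes with a promoter summit, and in replicate 2 it was 56.52, against 44.76.

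**Figure D1:**
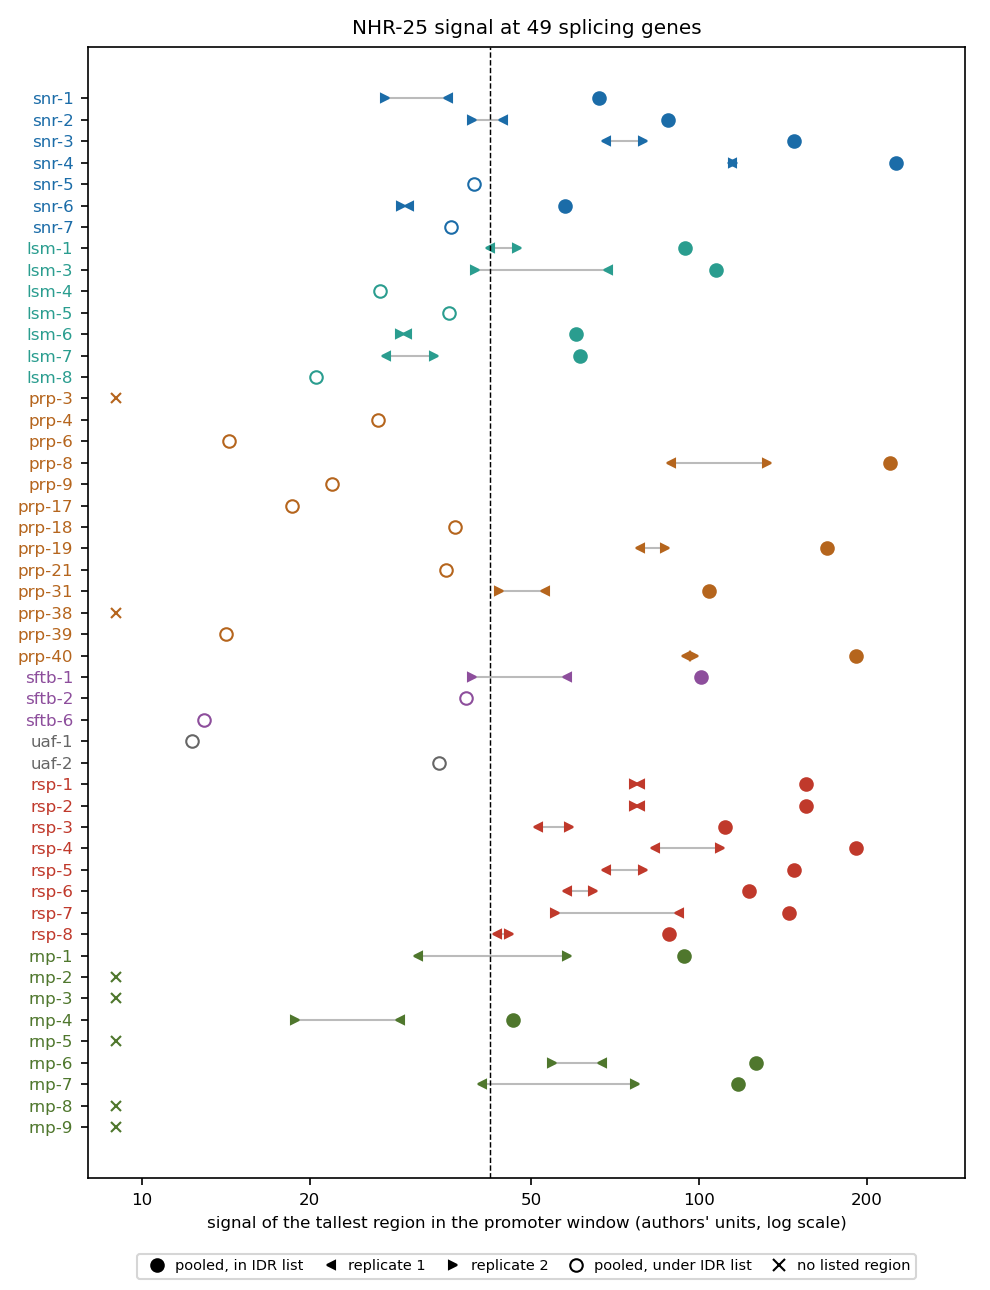
Signal of the tallest region in the promoter window of each of the 49 splicing genes, on a log axis in the authors' units. Filled circles are pooled heights of IDR peaks, triangles the heights of the same peaks in replicates 1 and 2, open circles the tallest pooled region of genes without an IDR summit, and crosses genes with no listed region in the window. The dashed line marks the lowest pooled signal of the IDR list, 42.2; all 8 rsp genes lie to its right and both uaf genes to its left.

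The authors' IDR list rests on both replicates, so a match between replicates at its peaks is a description. Its peaks were the 5017 tallest pooled regions, so a listed peak need not match in each replicate. Each of the 26 distinct summits could be matched to within 100 bp in replicates 1 and 2, against 94.3% of all promoter summits. Height in replicate 2 over that in replicate 1, on the log2 scale, had its median at 0.06 with an SD of 0.45 over the 26 summits, against a median of 0.12 with an SD of 0.70 over the 2705 promoter summits with both values. Replicate 2 was the higher at 15 of the 26. Of the 26 genes, 25 had their strongest summit among the 5017 tallest regions of both replicates, and the exception was rnp-4, which only replicate 1 marked. Outside the 26, snr-5 and snr-7 were marked only in the top regions of replicate 2, and prp-21 and sftb-2 only in those of replicate 1. The largest departures from equal height were at rnp-7 (replicate 2 over replicate 1, 1.88) and rnp-1 (1.85) in one direction and at lsm-3 (0.576) and rsp-7 (0.599) in the other.

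**Figure D2:**
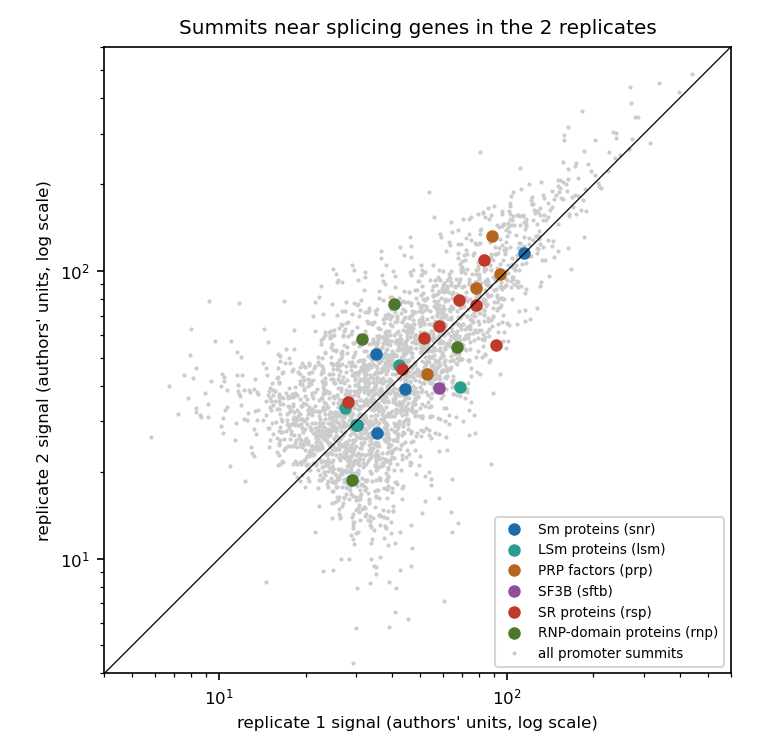
Replicate 1 signal (x) and replicate 2 signal (y) of each summit in a promoter window, on log axes in the authors' units, with the line of equal signal. Coloured points are the 26 summits near splicing genes by gene class, and grey points are all 2705 promoter summits matched in both replicates; the splicing summits lie along the line, with a median log2 ratio of 0.06.

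The SR proteins are RNA-binding proteins with arginine- and serine-rich tails that act in constitutive and regulated splicing. All 8 genes had a promoter summit, with pooled signals of 88.3 to 191.3 and a median of 146.5. Either replicate alone also gave 8 of 8 in its top regions, but the pooled heights rest on these same replicates. The tallest belonged to rsp-4 (signal 83.38 in replicate 1, 108.9 in replicate 2 and 191.3 pooled). It lay on chromosome II at 5390129, 1293 bp upstream of rsp-4 but 248 bp upstream of ndx-6, the next gene on the same strand. The one in front of rsp-4 is therefore also a summit in front of its neighbour.

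rsp-1 and rsp-2 lie head to head on chromosome II with 406 bp between them and share a single summit at 11453216. It had a signal of 78.34 in replicate 1, 76.36 in replicate 2 and 155.3 pooled, and lay 146 bp from the 5′ end of rsp-1 and 261 bp from that of rsp-2. Heights in the replicates differed by little here, with a ratio of 0.975. A second pair joined an SR gene to an Sm gene. rsp-5 and snr-3 are also divergent, with 403 bp between them, and share a summit at 6489994 on II, 171 bp from rsp-5 and 233 bp from snr-3. Its signal was 68.12 in replicate 1, 79.29 in replicate 2 and 148.1 pooled. With 1 summit between 2 genes, the data cannot assign it to either.

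rsp-7 had a summit at 10658927 on II, 279 bp upstream, with signals of 92.1 in replicate 1, 55.16 in replicate 2 and 144.9 pooled. It lay within the annotated non-coding gene M28.13 and 301 bp upstream of the divergent gene snu-13, which encodes a protein of the U4/U6 snRNP. A weaker summit 1317 bp upstream of rsp-7 (66.77 pooled) lay 207 bp upstream of lact-3. rsp-6 had 57.93 in replicate 1, 64.53 in replicate 2 and 122.7 pooled, 168 bp upstream. rsp-3, the worm's SF2/ASF-type SR protein gene, had 51.48 in replicate 1, 58.49 in replicate 2 and 111.4 pooled, 253 bp upstream and 143 bp from the divergent spin-4. rsp-8 had the lowest height of the class, with 43.32 in replicate 1, 45.62 in replicate 2 and 88.3 pooled. Its summit, 570 bp upstream, was the only one of the 26 that lay in no other gene's window. With each summit given only to its nearest 5′ end, rsp-1, rsp-5, rsp-6, rsp-7 and rsp-8 kept theirs.

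**Figure D3:**
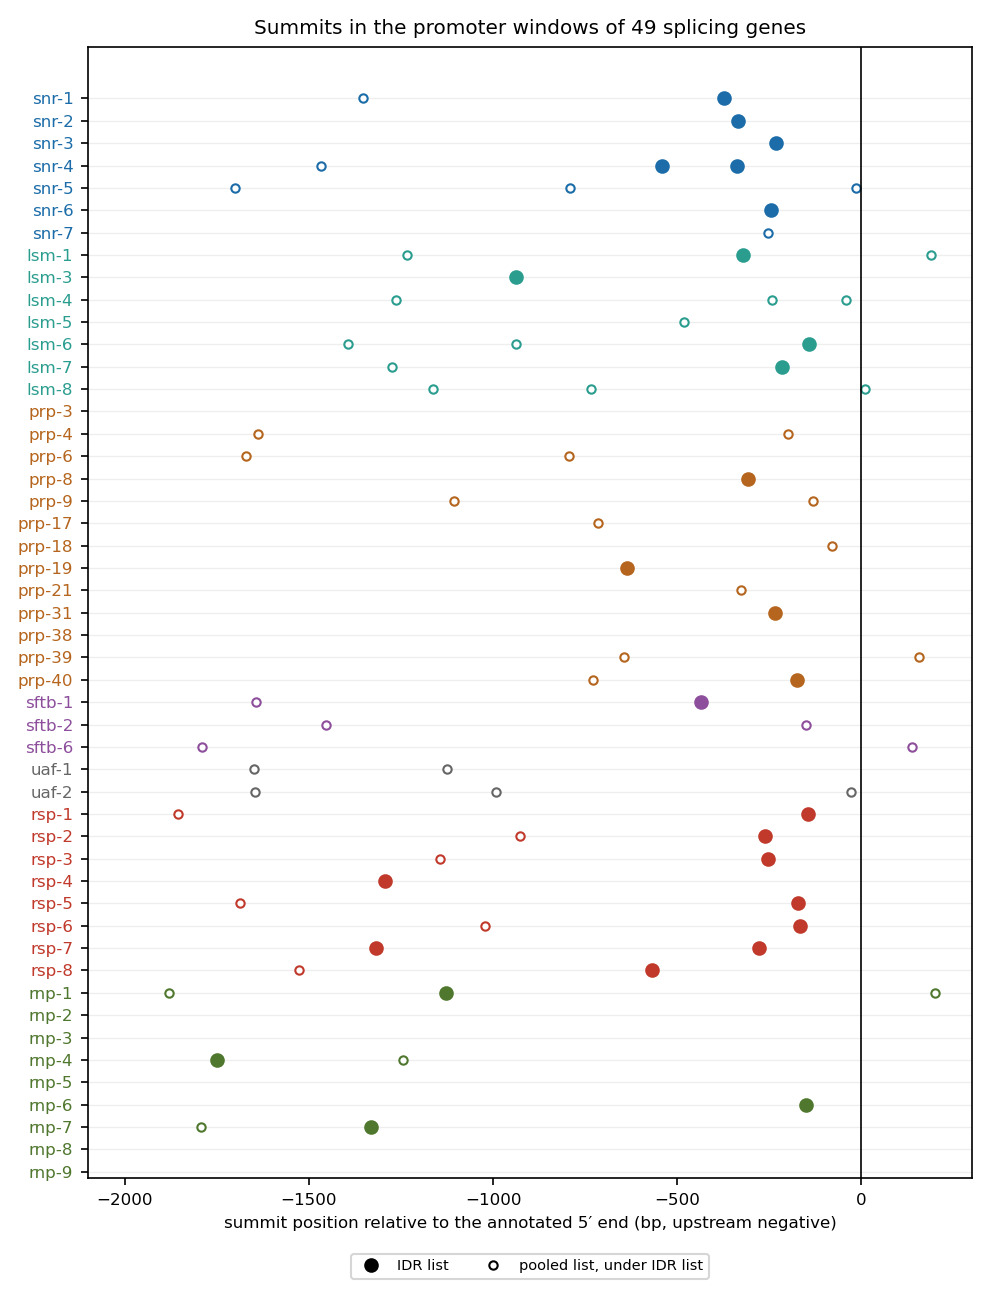
Position of every pooled summit in the promoter window of each of the 49 splicing genes, in bp relative to the annotated 5′ end, with upstream negative. Filled circles are IDR summits and open circles pooled regions under the IDR list. Most filled circles lie within 500 bp of the 5′ end, while those of rnp-1, rnp-4, rnp-7 and rsp-4, and the lower of the pair at rsp-7, lie more than 1000 bp upstream.

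Sm proteins form the ring on the U1, U2, U4 and U5 snRNAs. Of the 7 genes, 5 had a promoter summit. That of snr-4, annotated as Sm D2, was the tallest of all splicing genes, with 114.7 in replicate 1, 115.1 in replicate 2 and 225.7 pooled. It lay at 11980060 on V, 337 bp upstream and within the non-coding gene C52E4.14, and a lower summit (95.58 pooled) lay 541 bp upstream. snr-3 was second in the class, through the summit shared with rsp-5. snr-2, annotated as a protein B homologue, had 44.45 in replicate 1, 39.04 in replicate 2 and 87.99 pooled, 336 bp upstream on chromosome I. That summit lay 130 bp from the divergent W08E3.4. snr-1 (Sm D3) had 35.48 in replicate 1, 27.26 in replicate 2 and 66.18 pooled, 373 bp upstream and 238 bp from the divergent snx-13. snr-6 (protein E) had 30.11 in replicate 1, 29.19 in replicate 2 and 57.34 pooled, 246 bp upstream. The Sm genes thus held both the tallest and some of the lowest summits of the set, and with nearest-end assignment snr-4 and snr-6 kept theirs. snr-5 and snr-7, annotated as proteins F and G, had no IDR summit, but each had one among the top regions of replicate 2 alone. Their tallest pooled regions reached 39.48 and 35.89, just under the lowest signal of the IDR list (42.2).

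LSm proteins form the ring of U6 snRNA, and a form with LSm1 acts in mRNA decay in the cytoplasm. lsm-1, lsm-3, lsm-6 and lsm-7 had a promoter summit and lsm-4, lsm-5 and lsm-8 did not. lsm-3 had 68.71 in replicate 1, 39.56 in replicate 2 and 107.4 pooled. Its summit lay 939 bp upstream, in the windows of 4 other genes, and 116 bp upstream of the Mediator subunit gene mdt-9, which precedes lsm-3 on the same strand. The nearest 5′ end to it was that of Y62E10A.23, 60 bp away. lsm-1 had 42.17 in replicate 1, 47.14 in replicate 2 and 94.31 pooled. That summit lay 322 bp from lsm-1 and 266 bp from the divergent ribosomal protein gene rps-9. lsm-7 had 27.37 in replicate 1, 33.47 in replicate 2 and 61.03 pooled, 216 bp upstream and 83 bp from the divergent dnc-1. lsm-6 had 29.96 in replicate 1, 29.07 in replicate 2 and 60.13 pooled, 142 bp upstream, and was the only LSm gene whose summit was nearest to its own 5′ end. The LSm heights were low for the set, with a median of 77.67.

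The prp genes are named after yeast pre-mRNA processing mutants and encode proteins of several particles. A promoter summit was found for 4 of 13, against 18.4% of all genes. These 4 were tall, with a median of 180.2, against 83.94 over all genes with a promoter summit. prp-8 encodes the large U5 snRNP protein at the catalytic centre of the spliceosome. It had 88.91 in replicate 1, 132.5 in replicate 2 and 220.2 pooled at 8164065 on III, 308 bp upstream. prp-40, annotated as a WW domain protein, had 94.6 in replicate 1, 97.92 in replicate 2 and 191.1 pooled at 9521901 on III, 174 bp upstream. prp-19, which encodes the ubiquitin ligase of the Prp19 complex, had 78.35 in replicate 1, 86.98 in replicate 2 and 169.4 pooled, 636 bp upstream on III. That summit lay 39 bp from the 5′ end of the divergent K10D2.5, and prp-19 did not keep it under nearest-end assignment. prp-31, a U4/U6 snRNP protein gene, had 52.94 in replicate 1, 43.8 in replicate 2 and 104.1 pooled, 236 bp upstream on I.

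The other 9 prp genes, prp-3, prp-4, prp-6, prp-9, prp-17, prp-18, prp-21, prp-38 and prp-39, had no IDR summit in the window. prp-21 had one among the top regions of replicate 1 alone. Of the others the tallest pooled region was that of prp-18 (36.54, 80 bp upstream) and the lowest that of prp-39 (14.16). No region at all was listed in the windows of prp-3 and prp-38.

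SF3B binds the branch point within the U2 snRNP, and U2AF binds the 3′ splice site. sftb-1, annotated as SF3B subunit 1, had 57.92 in replicate 1, 39.16 in replicate 2 and 100.7 pooled at 4269705 on III. This summit was 435 bp from sftb-1 and 38 bp from the divergent R10E4.1. sftb-2 and sftb-6 had none, although sftb-2 had one among the top regions of replicate 1 alone, so that without replicate 2 the class had 2 of 3. Neither U2AF gene had a promoter summit in the IDR list or in the top regions of a single replicate. The tallest pooled region in the window had a signal of 34.16 for uaf-2, 28 bp upstream, and of 12.29 for uaf-1. The nearest IDR summit to uaf-1 lay 4194 bp upstream (265.1 pooled), outside the window. Taking the 5′ ends of all annotated transcripts in place of the gene's own left both uaf genes without a summit, and the count for the 49 genes at 26 (against 19.7% of all genes).

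The rnp genes share an RNA-recognition motif and a name more than a role, and 3 of the 4 with a summit had it over 1000 bp upstream. rnp-6, annotated as a poly(U)-binding splicing factor, had 66.92 in replicate 1, 54.35 in replicate 2 and 126.4 pooled at 3547061 on I. That summit was 151 bp from rnp-6 and 10 bp from the divergent rde-10, a gene of the RNAi pathway. rnp-7, which encodes the U1 70 kDa protein, had 40.7 in replicate 1, 76.7 in replicate 2 and 117.4 pooled. This summit, at 7162486 on III, lay 1331 bp upstream of rnp-7 and 371 bp upstream of syf-2, another splicing factor gene, which ends 4 bp before rnp-7 on the same strand. The nearest 5′ end to it was that of K04G7.1, 226 bp away. rnp-1 had 31.36 in replicate 1, 57.88 in replicate 2 and 93.97 pooled, 1128 bp upstream and 374 bp upstream of dpy-30. rnp-4, the Y14 homologue of the exon junction complex, had the lowest height of the set, with 29.1 in replicate 1, 18.84 in replicate 2 and 46.33 pooled. Its summit lay 1750 bp upstream, 250 bp upstream of snfc-5 and 100 bp upstream of R07E5.17, the nearest 5′ end. With the window shortened to 1000 bp, rnp-6 was the only rnp gene left with a summit. No region was listed in the windows of rnp-2, rnp-3, rnp-5, rnp-8 and rnp-9; rnp-8 is known as a germline factor, and rnp-9 was the only splicing gene on X.

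Several splicing genes stand second in a close same-strand pair, and there the summit could lie in front of the first gene. A run was counted where the next protein-coding gene upstream was on the same strand and ended within 500 bp. Of the 49 genes 13 were later members of such a run. In 5 of them both their own window and that of the first gene held a summit, which was one and the same for lsm-3, rnp-1, rnp-4 and rnp-7; lsm-6 had its own and a taller one in front of ubc-3 (177.9 pooled). For lsm-8, prp-38 and prp-39, 3 more, only the window of the first gene did. Of the 3872 later members of such runs among all genes, both windows held a summit for 382 and only that of the first gene for 776, so that 3 of 13 is near the share over all genes. The summit in front of sqd-1, 2665 bp upstream of lsm-8, had 164.7 in replicate 1, 155.1 in replicate 2 and 331.0 pooled. That in front of hmgs-1, 2106 bp upstream of prp-39, had 84.27 in replicate 1, 79.24 in replicate 2 and 163.9 pooled. It lay 147 bp upstream of hmgs-1 and slightly nearer to the 5′ end of the divergent F25B4.4, which is outside the run. The one in front of plrg-1, 2083 bp upstream of prp-38, had 86.68 in replicate 1, 63.1 in replicate 2 and 150.3 pooled. plrg-1 encodes a partner of the Prp19 complex. These 3 summits were all taller than the median of the 26 genes counted above, and those of prp-38 and prp-39 fell just outside the window, while the farthest inside it was that of rnp-4. With the window placed at the first gene of each run, 27 of the 49 genes had a summit (55.1%), against 21.1% of all genes; 24 of the 26 kept one, and rsp-4 and rsp-6, deep in longer runs, lost theirs. The annotation used here does not mark operons, so these runs are defined by distance alone.

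**Figure D4:**
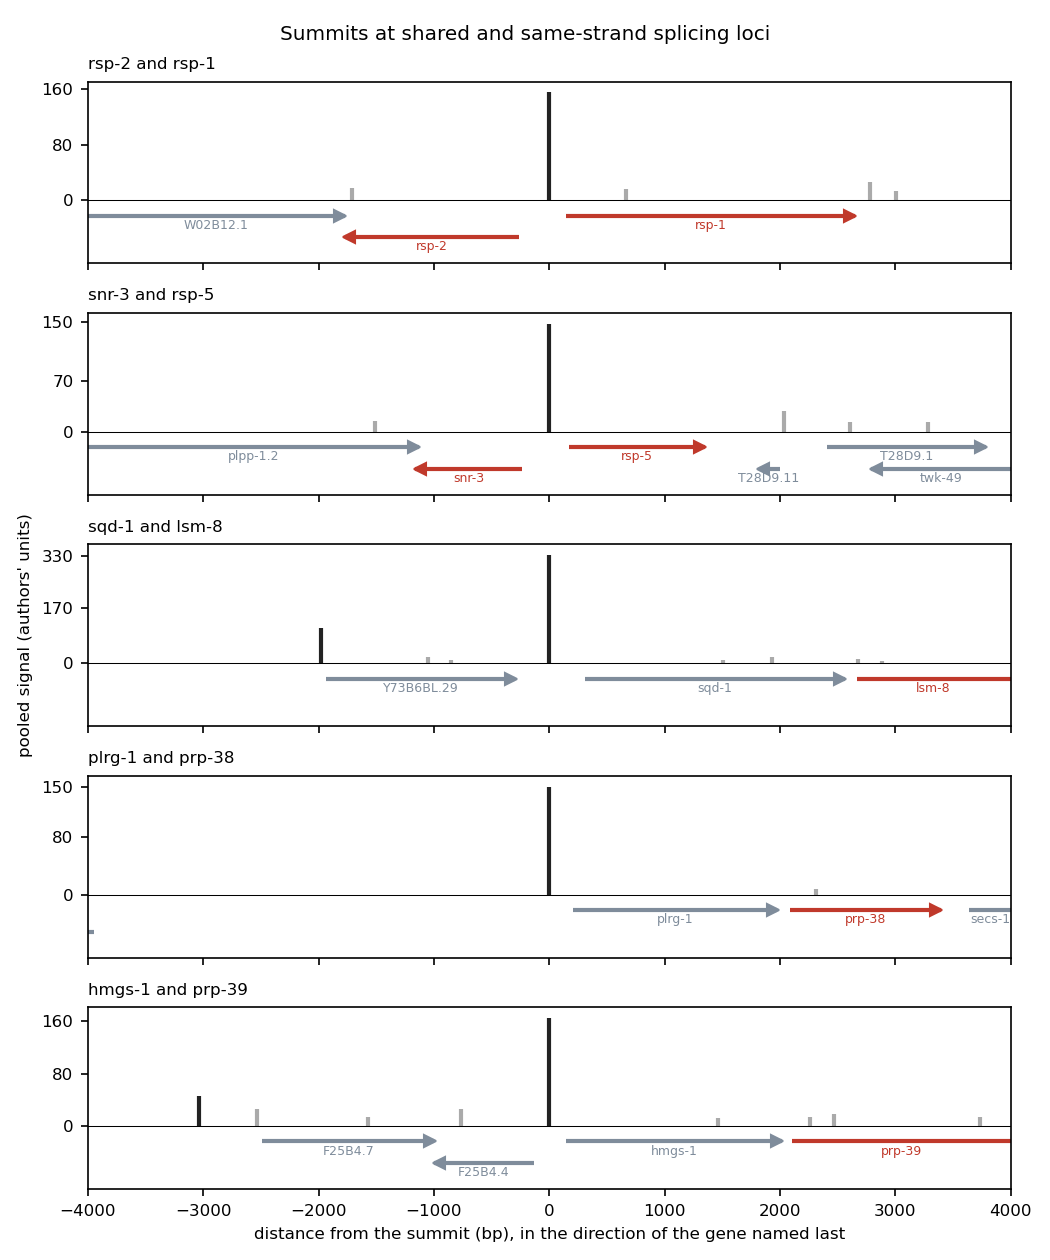
Pooled signal (y, authors' units) of regions against distance in bp from a named summit (x), in the direction of the gene named last in each panel title. Black bars are IDR summits, grey bars regions under the IDR list, red arrows splicing genes of the set and grey arrows other protein-coding genes. In the upper 2 panels 1 summit lies between divergent splicing genes, at 155.3 and 148.1, and in the lower 3 it precedes the first gene of a same-strand pair, at 331.0, 150.3 and 163.9.

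Upstream neighbours on the opposite strand occurred at splicing genes with and without a summit. The next protein-coding gene upstream was on the opposite strand for 17 of the 26 genes with a summit and for 14 of the 23 without. The median gap to the next protein-coding gene upstream, on either strand, was 435.5 bp with a summit and 344.0 bp without. Of all genes with a promoter summit, 58.0% had an opposite-strand neighbour upstream, against 65.4% of the splicing genes with one. With or without a summit, it was 63.3% of the splicing genes, against 45.0% of all genes. The strongest summit lay between 0 and 500 bp upstream for 19 of the 26 (73.1%), against 52.6% of all genes with a promoter summit. It lay over 1000 bp upstream for 4 of them (15.4%, against 28.4%), and downstream of the 5′ end for none of them, against 156 of the 3673. The median distance was 293.5 bp, against 367.0 bp.

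Of the 23 splicing genes without a promoter summit, 16 had weaker regions of the pooled list in the window, with a tallest signal of 12.29 to 39.48 and a median of 26.65. These regions were outside the authors' IDR list. None of the 23 had an IDR summit within the gene. Those closest to the lower limit of the list were snr-5 (39.48), sftb-2 (38.2), prp-18 (36.54) and snr-7 (35.89), and the lowest above it was rnp-4 (46.33). By chromosome, summits were found at 9 of 13 splicing genes on III, 7 of 11 on II, 4 of 8 on I, 4 of 9 on IV, 2 of 7 on V and 0 of 1 on X. Over all genes the share was 24.5% on III, 17.6% on II, 24.3% on I, 16.3% on IV, 12.9% on V and 19.9% on X.

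Splicing genes with other names were counted in the same way. Of 76 such genes listed by role, 74 were in the annotation and 31 of these had a promoter summit (41.9%), against 18.4% of all genes. Their median signal was 85.48, against 83.94 over all genes with a promoter summit. By role, 16 of 38 further spliceosome genes had one, led by snrp-40.1 (44.08 in replicate 1, 113.9 in replicate 2 and 165.0 pooled) and plrg-1. Among regulators of alternative splicing it was 5 of 15, led by the SR protein kinase gene spk-1 (68.61 in replicate 1, 105.5 in replicate 2 and 171.4 pooled, 308 bp upstream) and sym-2 (115.2 pooled). In the group of snRNP assembly, trans-splicing and snRNA transcription it was 5 of 14, led by sna-3 (138.6) and snpc-3.4 (100.4). Of the genes for the exon junction, export and cap binding it was 5 of 7, led by hel-1, the UAP56-type helicase (61.68 in replicate 1, 85.47 in replicate 2 and 152.8 pooled), and aly-1 (74.0).

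The set was placed beside 3 other broadly used machineries. A promoter summit was found for 53.1% of the 49 splicing genes, for 57.6% of 33 proteasome subunit genes, for 45.9% of 37 Mediator and TFIID genes and for 90.8% of 76 ribosomal protein genes. Under nearest-end assignment the share was 22.4% of splicing genes, 45.5% of proteasome genes, 24.3% of Mediator and TFIID genes and 38 of the 76 ribosomal protein genes. The splicing genes were thus above the Mediator and TFIID genes in the first count and below them in the second. No test was made of these differences. mdt-9 is counted among the Mediator genes through the same summit as lsm-3, and rps-9 among the ribosomal ones through that of lsm-1.

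**Figure D5:**
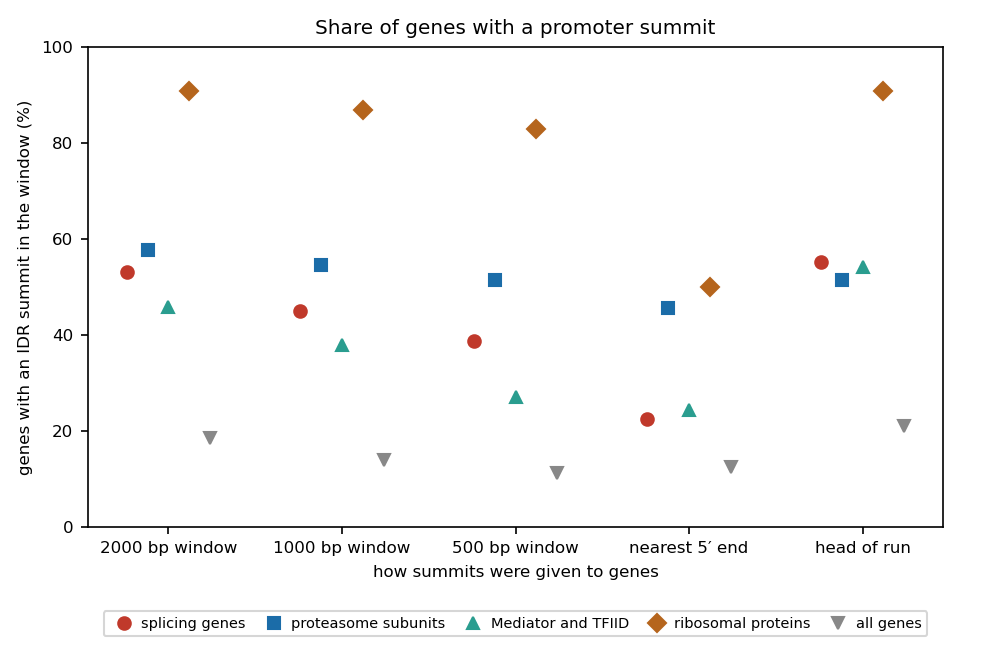
Percent of genes with an IDR summit (y) in the splicing set, 3 other gene groups and all nuclear protein-coding genes, under 5 ways of giving summits to genes (x). The splicing genes lie at 53.1% with the 2000 bp window and at 22.4% with nearest-end assignment, against 18.4% and 12.5% of all genes.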

How the data were processed

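NHR-25 binding was measured by ChIP-seq in 2 samples labelled as replicates of a single group. Per the deposited index text, a replicate's list rests on its alignment and the control's, the pooled list on all of these, and the IDR list on the pooled and both replicate lists. Peaks were thus called per sample and on pooled samples. In the deposited ce11 lists the signal column holds a height per peak, and the −log10 q-value column, by its place in the layout, was not used for ranking. The names of the aligner and the caller were not given in the sources used here. In all, the pooled list holds 30000 regions; the IDR peaks are the 5017 tallest of the pooled list, and no region was identical between the replicates. Read totals were not used here, so depth is unknown and no interval that needs it is given. Lists on ce10 were not used.

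Genes were those of Ensembl release 115 (WBcel235). A summit counted for every gene whose window, 2000 bp upstream to 200 bp downstream of its 5′ end, held it. Summits within 100 bp were taken as the same peak between lists, and sequence was searched within 100 bp. Windows, matches and searches were tested on simulated data. Python 3.11.15, pandas 2.3.3, numpy 2.4.6 and matplotlib 3.10.9 were used. No test was made: there is 1 group, and gene lists were described by counts beside all genes. Full values were given for up to 5 genes of each class by signal, and, chosen after their values were seen, for rsp-3, rsp-6 and rsp-8 beside them. The set, lists and rules were chosen with earlier results of these data known.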

Additional observations from a re-analysis of the deposited data

How the results depend on the processing

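The number of splicing genes with a promoter summit stayed within 1.5 times of 26 in all alternatives but one: it was 11 with each summit given only to its nearest 5′ end. With the top regions of a single replicate it was 27 and 28. Distinct summits in the windows numbered 26, or 27 to 28 with a replicate left out, 17 with the 500 bp window and 12 with nearest-end assignment, which by construction drop summits. By class, nearest-end assignment left 2 of 7 Sm, 1 of 7 LSm, 5 of 8 SR, 3 of 13 prp, 0 of 9 rnp and 0 of 3 SF3B genes with one. Over all genes the share under this setting was 12.5%. The classes are small, and no test of them against that share was made. The half-site core stayed at 0 in its 3 alternatives, which by construction could not exceed the main count of 0. Matches in both replicates stood at 26 genes, 25 within 50 bp and 26 within 200 bp. The median pooled signal of 114.4 was 122.7 with the 500 bp window and 144.9 with nearest-end assignment; the cause was not tested. Windows at the first gene of a run, an alternative chosen after seeing the data, gave 27 genes. In the 2508 tallest IDR peaks 21 genes had a summit, against 10.6% of all genes, and lsm-6, lsm-7, rnp-4, snr-1 and snr-6 lost theirs. Without replicate 1, snr-5 and snr-7 gained one and rnp-4 lost its own; without replicate 2, prp-21 and sftb-2 gained one. No paired analysis was possible because there is only 1 group. With depth unknown, a gene without a summit is not shown to be unbound.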
